A study of Mus musculus with 4 samples.

Results

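The genes described here are 42 components of DNA replication and nucleotide supply, chosen by name as 23 genes of origin licensing and the replicative helicase, 14 of the polymerases, sliding clamp and clamp loader, and 5 that supply deoxynucleotides. All 42 were found among the 14984 genes of the deposited table of mouse testis ribosome footprints, and all 42 passed the filter on low counts that left 12095 genes for testing. Ribosome footprints are the mRNA fragments that a translating ribosome shields from nuclease. The 4 libraries came from day 10 testes: 2 from mice with Eif5 deleted in germ cells (Eif5 cKO), made by crossing Eif5 fl/fl mice with Stra8-Cre mice, and 2 labelled control. The labels give neither the alleles that the controls carried nor how many animals lay behind each group. The p-values therefore describe variation among these 4 libraries, part or all of which may be technical. Stra8-Cre is a germ cell driver, so the Sertoli, Leydig and other somatic cells that whole testis RNA includes were not its target.

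Replication begins when the origin recognition complex, Cdc6 and Cdt1 load rings of Mcm2 to Mcm7 onto DNA before S phase. Kinases then add Cdc45 and GINS to each ring to make the active helicase, polymerase alpha-primase lays primers, replication factor C places the PCNA clamp, and polymerases epsilon and delta extend the strands. Ribonucleotide reductase, thymidylate synthase, thymidine kinase and dUTPase set the supply of deoxynucleotides. In the juvenile testis this machinery serves dividing spermatogonia, the DNA synthesis of preleptotene spermatocytes before meiosis and, at this age, dividing Sertoli cells.

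The libraries held 2296938 and 2782527 reads in Eif5 cKO replicates 1 and 2 and 2934609 and 2225964 in control replicates 1 and 2. Eif5, which encodes a translation initiation factor, had values of 173 and 266 in Eif5 cKO and 365 and 304 in control. Both knockout values lay below both controls, but its log2 fold change of -0.63 (SE 0.25) did not pass (limma, Benjamini-Hochberg adjusted p = 0.319). Values throughout are the deposited ones, which are reads divided by a size factor for each library. Fold changes are Eif5 cKO over control on the log2(value + 1) scale, which understates changes of low genes. Calls required an adjusted p below 0.05. Of all genes tested, 0.604% were called lower and 0.0744% higher in Eif5 cKO. The meiotic prophase markers of the tissue took 0.0635% and 0.0787% of reads in the Eif5 cKO libraries and 0.206% and 0.184% in the controls, and 12 of the 17 tested were called lower. Of the 20 listed, Spo11 had no read in either Eif5 cKO library, but its low counts did not pass the filter and it was not tested. Sertoli cell markers took 4.66% and 3.57% of Eif5 cKO reads and 2.71% and 3.48% of control reads, and 0 of 15 were called, although 12 lay above both controls (against 20.0% of all genes) and 6 were higher at an unadjusted p under 0.05. Leydig cell markers took 0.129% and 0.123% of Eif5 cKO reads and 0.0794% and 0.0913% of control reads, with 7 of 9 above both controls, a median log2 fold change of 0.69 and 0 called.

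Of the 42 replication and nucleotide genes, 2 fell in Eif5 cKO testes and 0 rose. Those that fell were Rrm2, the small subunit of ribonucleotide reductase, and Mcm5, a subunit of the helicase ring. The 2 calls are 4.76% of the genes, set against the 0.604% of all genes tested that were called lower. A negative log2 fold change was seen for 33 of the 42 (78.6%), against 49.7% of all genes tested, and the median log2 fold change was -0.32, against 0.003 over all genes tested. Both Eif5 cKO values lay below both control values for 18 of the 42 (42.9%), against 20.9% of all genes, and above both for 1 (2.38%), against 20.0%. At an unadjusted p under 0.05 there were 7 lower genes (16.7%, against 6.31% of all genes) and 0 higher ones (against 4.32%). With libraries scaled on a list of Sertoli cell genes, 5 of the 42 were called lower. That scaling also raised the calls over all 12095 genes, in either direction, from 82 to 276. Under it 8 of the 9 genes with a positive sign had a negative one, and the median of all genes moved to -0.47. In whole testis, fewer cells that make these proteins and fewer footprints in each cell cannot be told apart. Meiotic prophase markers fell in the same libraries, as given above. Of 8 tested markers of undifferentiated spermatogonia, 0 were called, with 4 negative and 4 positive log2 fold changes. The part of germ cell numbers in the differences of the 42 genes was not tested.

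**Figure D1:**
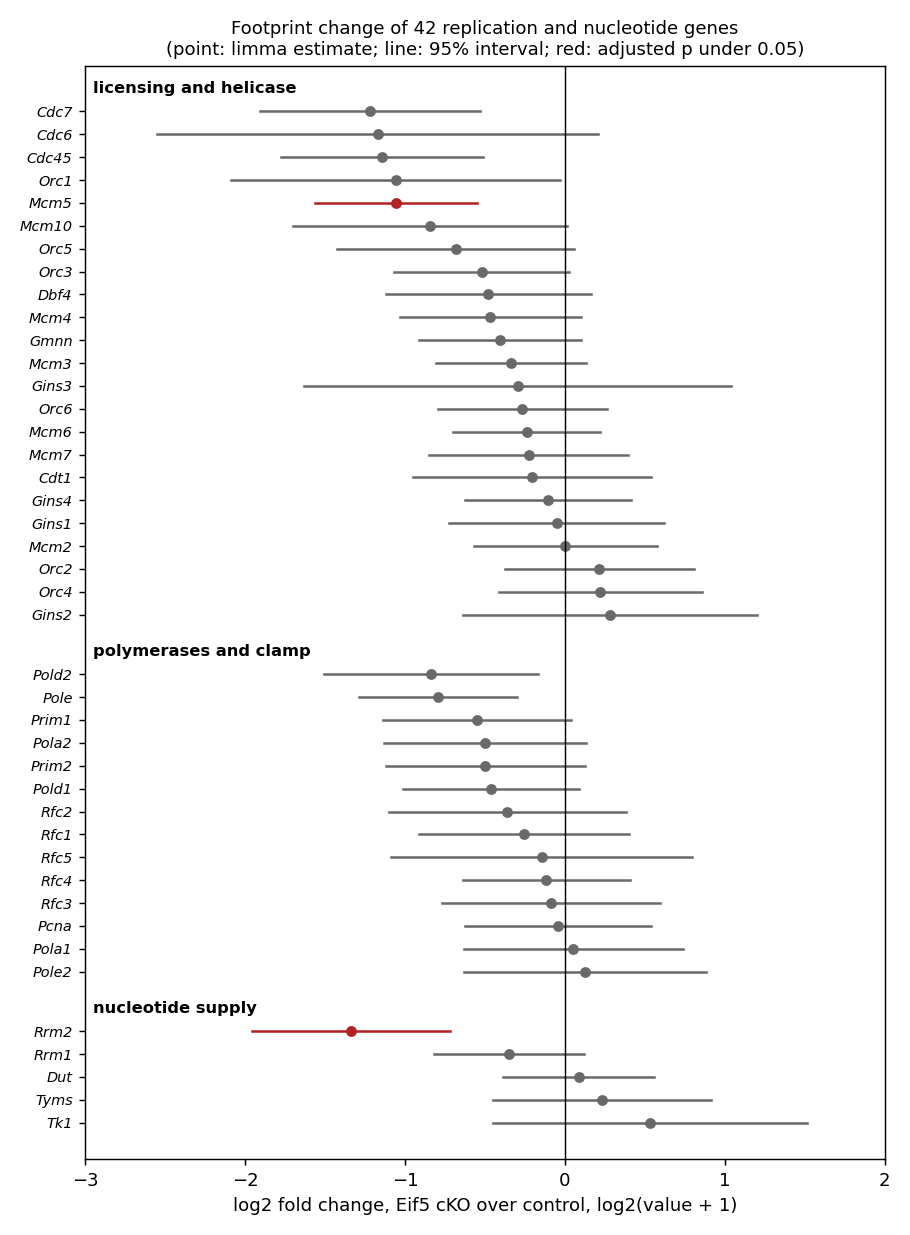
Log2 fold change of each of the 42 genes (horizontal axis, Eif5 cKO over control on the log2(value + 1) scale) by role, with the 95% interval from limma as a line and the 2 called genes in red. Of the 42 points, 33 lie left of 0, and Rrm2 at -1.34 and Mcm5 at -1.06 are the called ones.

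The controls differed from each other over these genes. The median log2 difference of control replicate 1 over control replicate 2 was 0.32 across the 42, against 0.002 across all genes tested, and replicate 1 was the higher for 29 of them (69.0%, against 50.1% of all genes tested). The Eif5 cKO libraries differed by a median of -0.05, replicate 1 over replicate 2. Set against control replicate 1, the median difference was -0.48 for each Eif5 cKO library, with 33 and 36 of the 42 lower in replicates 1 and 2. Set against control replicate 2, it was -0.16 for Eif5 cKO replicate 1 and -0.20 for replicate 2, with 27 of 42 lower in each. Every one of these 4 comparisons of an Eif5 cKO library with a control was negative. Their size depended strongly on the control, at -0.48 against replicate 1 and only -0.16 and -0.20 against replicate 2. Without control replicate 1 the median over the 42 genes was -0.19, and without control replicate 2 it was -0.54.

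**Figure D2:**
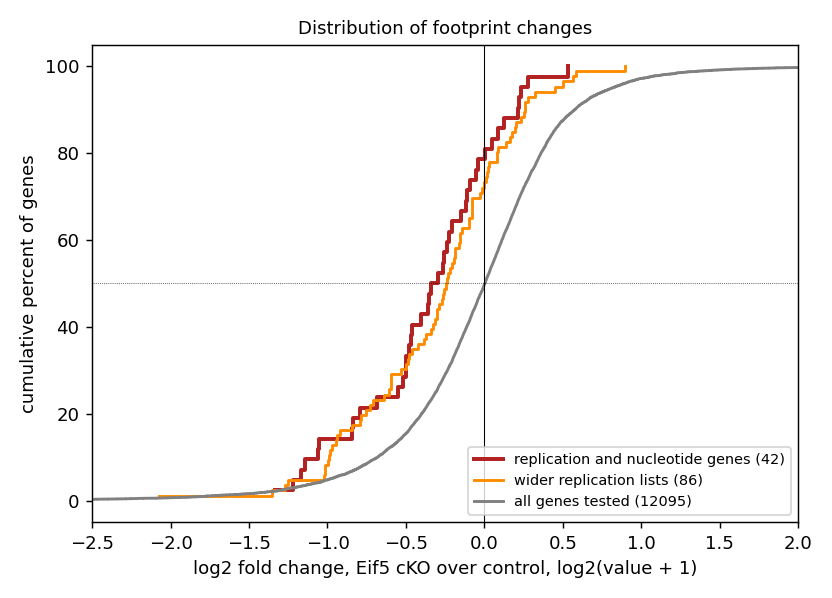
Cumulative percent of genes (vertical axis) at or below each log2 fold change (horizontal axis, Eif5 cKO over control) for the 42 genes, for 86 tested genes of 5 wider replication lists and for all 12095 genes tested. The curve of the 42 crosses 50% at -0.32 and that of all genes at 0.003.

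Mcm5 had values of 179 and 150 in Eif5 cKO replicates 1 and 2, against 392 and 298 in control replicates 1 and 2. The groups did not overlap, and the Eif5 cKO mean of 165 ± 21.0 stood against 345 ± 66.0 in control (SD, n = 2 each). limma gave a log2 fold change of -1.06, which is 2.08-fold lower on the log2(value + 1) scale (SE 0.25, 95% interval -1.56 to -0.55, Benjamini-Hochberg adjusted p = 0.0285). Mcm5 spans 75109468 to 75128439 on chromosome 8 (GRCm38). Its call depended on single libraries: the adjusted p in limma was 0.662 when control replicate 1 was left out, 0.107 when control replicate 2 was left out, 0.0577 when Eif5 cKO replicate 2 was, and 0.0103 when Eif5 cKO replicate 1 was. The log2 fold change in these fits was -0.86, -1.25, -0.93 and -1.18.

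The other 5 subunits of the ring were not called. Mcm3 had 386 and 408 in Eif5 cKO, against 588 and 430 in control (log2 fold change -0.34, SE 0.23). Mcm6 had 575 and 594 in Eif5 cKO, against 792 and 600 in control (-0.24, SE 0.23), so that control replicate 2 lay close to both knockout libraries. Mcm4 had 110 and 161 in Eif5 cKO and 222 and 154 in control (-0.47, SE 0.28), and its groups overlapped. Mcm7 (94.3 and 132 in Eif5 cKO, 177 and 96.4 in control; -0.23, SE 0.31) and Mcm2 (198 and 128 in Eif5 cKO, 198 and 127 in control; 0.003, SE 0.28) overlapped as well. For Mcm2, Mcm3, Mcm6 and Mcm7 the 95% interval lay wholly above -1, a 2-fold decrease, with lower bounds of -0.57, -0.81, -0.70 and -0.85. Over the 42 genes the interval lay wholly above -1 for 22, against 67.7% of all genes tested, and for 13 it held both 0 and values below -1, against 26.1% of all genes.

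Because the 6 ring proteins are made for a single assembly, the share of each in the summed reads of all 6 was taken within each library, where the scaling of libraries drops out. Mcm5 took 11.6% (95% Wilson interval 10.0% to 13.4%) and 9.52% (8.24% to 11.0%) of these reads in Eif5 cKO replicates 1 and 2. In control replicates 1 and 2 it took 16.5% (15.2% to 17.9%) and 17.5% (15.6% to 19.5%). The Eif5 cKO intervals lay below both control intervals. Mcm6 took 37.3% and 37.7% in Eif5 cKO, against 33.4% and 35.2% in control, also without overlap but with intervals that met. The shares of Mcm2, Mcm3, Mcm4 and Mcm7 overlapped between groups. Intervals here cover counting error only, and an exact permutation test of 2 against 2 libraries cannot give a two-sided p below 0.333, which is the value Mcm5 and Mcm6 reached.

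The promoters of these genes are shown because E2F factors and the CCAAT-binding factor NF-Y are known regulators of replication genes, and because Mcm5 and Rrm2 were the called genes. Mcm6 and Mcm2, ring partners of Mcm5 that were not called, are set beside them. The sequences are RefSeq windows of the 250 bases before the start site (GRCm38.p6), 5′ to 3′ on the gene's strand, less any bases inside the annotated gene. Capitals mark the E2F letters TTTGGCGC, TTTCGCGC, TTTCCCGC or TTTGCCGC and the letters CCAAT, on either strand.
Mcm5 (chr8:75109259-75109467, plus strand): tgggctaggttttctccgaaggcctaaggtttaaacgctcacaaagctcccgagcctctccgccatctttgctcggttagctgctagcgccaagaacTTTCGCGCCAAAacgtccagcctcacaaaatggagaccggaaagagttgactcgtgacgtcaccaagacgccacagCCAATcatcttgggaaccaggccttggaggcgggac
Mcm6 (chr1:128359706-128359955, minus strand): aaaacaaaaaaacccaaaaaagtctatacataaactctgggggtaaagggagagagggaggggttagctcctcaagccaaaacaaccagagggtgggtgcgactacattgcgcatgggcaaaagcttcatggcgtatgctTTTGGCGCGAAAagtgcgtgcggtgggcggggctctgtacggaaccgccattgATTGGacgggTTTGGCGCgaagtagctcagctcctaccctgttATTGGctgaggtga
Mcm2 (chr6:88898781-88899030, minus strand): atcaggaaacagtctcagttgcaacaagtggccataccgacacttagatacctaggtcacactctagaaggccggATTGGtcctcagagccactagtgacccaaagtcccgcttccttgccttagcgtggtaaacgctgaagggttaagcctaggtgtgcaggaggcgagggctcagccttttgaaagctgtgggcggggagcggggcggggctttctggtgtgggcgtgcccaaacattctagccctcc
Rrm2 (chr12:24708004-24708253, plus strand): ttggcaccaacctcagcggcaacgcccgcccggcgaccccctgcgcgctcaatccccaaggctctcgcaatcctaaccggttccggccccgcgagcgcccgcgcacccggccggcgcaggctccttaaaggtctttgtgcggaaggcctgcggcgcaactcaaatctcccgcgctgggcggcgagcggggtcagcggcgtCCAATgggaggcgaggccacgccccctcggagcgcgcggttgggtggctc
Mcm5 and Mcm6 each held a pair of E2F matches overlapping on opposite strands, and Mcm6 held 1 more. Neither Mcm2 nor Rrm2 held any of these E2F letters in its window. CCAAT stood in all 4.

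Of the 42 genes, 34 had a promoter window. Matches here were counted in the whole 250 bases before the start, bases inside the annotated gene included. At least 1 of these E2F letters stood in 9 of the 34 (26.5%). This compares with 3.62% of 8970 tested genes with a window and 1.86% of all 32851 windows. In Cdc6, Mcm7, Orc1 and Pola1 the E2F match lay inside the annotated gene. CCAAT stood in 19 of 34 (55.9%), against 36.6% of the tested genes and 33.8% of all windows. In Mcm7, Orc1, Orc4, Pola1 and Rfc1 every CCAAT match lay inside the annotated gene. The letters TTTGAA, the core of the cell cycle element called CHR, stood in 3 of 34 (8.82%), against 10% of the tested genes and 16% of all windows. The median log2 fold change was -0.30 for the 9 genes with E2F letters and -0.27 for the 25 without, and these medians were not tested against each other. It was -0.30 for the 19 genes with CCAAT and -0.21 for the 15 without. A match is a description of these letters and not a bound site.

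The activators of the loaded ring had their largest differences in Cdc45 and Cdc7. Cdc45, which joins the ring in the active helicase, had 53.4 and 85.2 in Eif5 cKO, against 153 and 148 in control. Its log2 fold change was -1.14 (SE 0.31), and it was not called (limma adjusted p = 0.0780). Cdc7, the kinase that triggers origin firing, had 39.8 and 63.7 in Eif5 cKO, against 125 and 112 in control (-1.22, SE 0.34; limma adjusted p = 0.0857). In both genes the higher knockout value lay well under the lower control value. Without Eif5 cKO replicate 2 both passed, with adjusted p of 0.00438 for Cdc45 and 0.00604 for Cdc7 in limma, and neither passed without Eif5 cKO replicate 1 or without either control.

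Dbf4, the activating partner of Cdc7, had 71.6 and 79.0 in Eif5 cKO, against 95.5 and 116 in control, with no overlap (log2 fold change -0.48, SE 0.32). Cdc7 took 35.7% and 44.7% of the summed Cdc7 and Dbf4 reads in Eif5 cKO, against 56.7% and 49.2% in control. These shares did not overlap, but their Wilson intervals met. They were 37.1% to 52.4% in Eif5 cKO replicate 2 and 42.4% to 56.1% in control replicate 2. The exact permutation p of 0.333 is the smallest that 2 against 2 libraries allow, so no shift in balance is shown. Mcm10, which binds and activates the assembled helicase, had 30.7 and 34.1 in Eif5 cKO, against 73.4 and 47.1 in control (-0.84, SE 0.42). None of Cdc45, Cdc7, Dbf4 and Mcm10 passed the test over all genes.

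The 4 GINS subunits, which complete the active helicase with Cdc45, differed in sign, and 0 of 4 were called. Gins1 had 65.9 and 96.0 in Eif5 cKO and 75.1 and 90.7 in control, and Gins4 had 227 and 169 in Eif5 cKO and 210 and 212 in control. Gins2, with 45.4 and 35.9 in Eif5 cKO against 31.8 and 34.4 in control, was the single gene of the 42 with both knockout values above both controls, on 30 to 40 reads a library (0.28, SE 0.45). Gins3 had 14 to 27 reads a library, and its wide interval of -1.63 to 1.04 included a 2-fold change in either direction. The summed GINS reads were 0.0136% and 0.0126% of the Eif5 cKO libraries and 0.0141% and 0.0138% of the controls. The log2 fold changes were -0.05 (SE 0.33) for Gins1 and -0.11 (SE 0.26) for Gins4, and neither gene was called.

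In the origin recognition complex, 4 of 6 subunits had a negative log2 fold change, against 49.7% of all genes tested, and 0 were called. Orc1, its cell cycle regulated ATPase, had 15.9 and 26.9 in Eif5 cKO, against 58.8 and 33.3 in control (-1.06, SE 0.51; limma adjusted p = 0.451). Orc3 had 132 and 122 in Eif5 cKO, against 171 and 194 in control (-0.52, SE 0.27), and Orc5 had 37.5 and 75.4, against 84.9 and 87.2 in control (-0.68, SE 0.37). In these 3 both knockout values lay below both controls, as they did for 20.9% of all genes tested. Orc2, Orc4 and Orc6 overlapped between groups, with log2 fold changes of 0.21, 0.22 and -0.27 (SE 0.29, 0.31 and 0.26). The Eif5 cKO libraries themselves lay far apart for Orc4 (90.9 and 188) and Orc6 (157 and 255).

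Among the factors that load the ring, Cdc6 had only 5 and 24 reads in the Eif5 cKO libraries, against 42 and 18 in the controls, and its log2 fold change of -1.17 had an SE of 0.68. Cdt1, which brings the ring to Cdc6 and the origin complex, had 55.7 and 69.1 in Eif5 cKO and 99.6 and 51.7 in control (-0.21, SE 0.37). Gmnn encodes geminin, which binds Cdt1 and blocks relicensing, and had 326 and 208 in Eif5 cKO and 397 and 301 in control (-0.41, SE 0.25). The groups overlapped in all 3, and none was called. Over the 23 licensing and helicase genes, the median log2 fold change was -0.34, with 19 negative and 4 positive (49.7% of all genes tested were negative). Of the 23, 1 was called lower, against 0.604% of all genes, and 10 lay below both controls, against 20.9% of all genes.

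**Figure D3:**
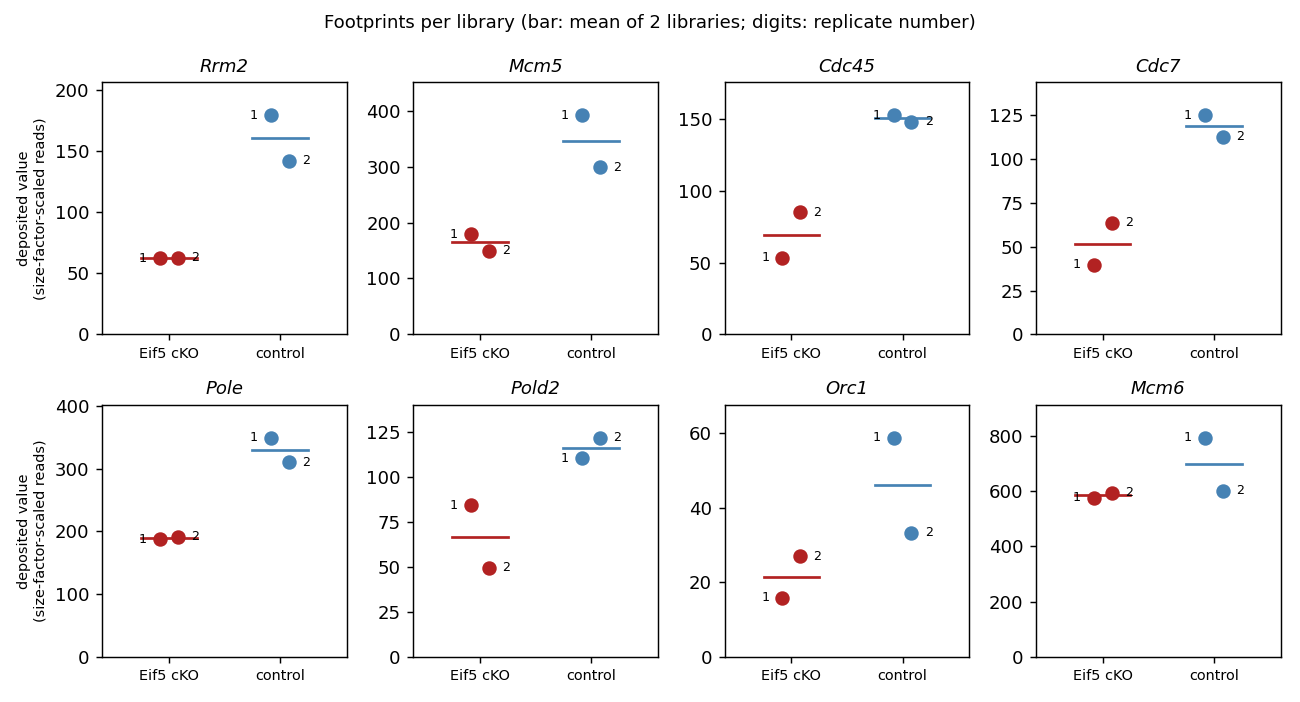
Deposited value (vertical axis, size-factor-scaled reads) in each library for the 7 genes with an unadjusted p under 0.05 and for Mcm6, with Eif5 cKO in red left of control in blue and a bar at the mean of 2 libraries. In all 8 panels both knockout points lie below both control points, as for 20.9% of all genes tested. The 7 genes were picked by p from these same libraries, which favours such separation. In Mcm6 the gap between the groups is narrow, at 594 against 600.

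Of the 14 genes of polymerases, clamp and clamp loader, 0 were called. Their median log2 fold change was -0.31, with 12 negative (85.7%, against 49.7% of all genes tested) and 2 positive. Both knockout values lay below both controls for 6 (42.9%, against 20.9% of all genes tested). Pole, the catalytic subunit of the leading-strand polymerase epsilon, had 187 and 191 in Eif5 cKO, against 349 and 310 in control. Its mean was 189 ± 2.59 in Eif5 cKO and 330 ± 27.8 in control (SD, n = 2 each), with a log2 fold change of -0.79 (SE 0.24; limma adjusted p = 0.143). Pole2, its accessory subunit, had 63.6 and 56.5 in Eif5 cKO and 61.2 and 49.4 in control (0.12, SE 0.37). Pole2 thus took 25.3% and 22.8% of the summed Pole and Pole2 reads in Eif5 cKO, against 14.9% and 13.7% in control. Its Wilson intervals were 20.1% to 31.5% and 18.3% to 28.1% in Eif5 cKO, against 12.1% to 18.3% and 10.4% to 18.0% in control. Only those of Eif5 cKO replicate 2 and control replicate 1 met, at their edges. The exact permutation p of 0.333 is the smallest that 2 against 2 libraries allow, so no shift in balance is shown.

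Pold2, the accessory subunit of the lagging-strand polymerase delta, had 84.1 and 49.3 in Eif5 cKO, against 110 and 122 in control (-0.84, SE 0.33; limma adjusted p = 0.319). Pold1, its catalytic subunit, had 128 and 134 in Eif5 cKO, against 210 and 156 in control (-0.46, SE 0.27). In both genes the groups did not overlap. The share of Pold2 in the summed Pold1 and Pold2 reads, 39.6% and 27.0% in Eif5 cKO and 34.4% and 43.8% in control, overlapped between groups.

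In polymerase alpha-primase, 3 of 4 subunits lay below both controls in both knockout libraries, against 20.9% of all genes tested, and 0 were called. These were the primase subunits Prim1 (87.5 and 113 in Eif5 cKO, 153 and 139 in control; log2 fold change -0.55, SE 0.29) and Prim2 (92.0 and 76.3 in Eif5 cKO, 136 and 103 in control; -0.50, SE 0.31). The other was Pola2, the regulatory subunit, with 85.2 and 73.6 in Eif5 cKO and 103 and 123 in control (-0.50, SE 0.31). The catalytic subunit Pola1 had 78.4 and 77.2 in Eif5 cKO and 62.8 and 89.5 in control, with a log2 fold change of 0.05 (SE 0.34).

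The sliding clamp Pcna had 149 and 120 in Eif5 cKO and 169 and 112 in control, with a log2 fold change of -0.04 (SE 0.29, 95% interval -0.62 to 0.54). All 5 subunits of its loader, replication factor C, overlapped between groups, and their log2 fold changes ran from -0.36 for Rfc2 to -0.09 for Rfc3. Rfc4 had 201 and 223 in Eif5 cKO and 284 and 186 in control. Rfc1, the large subunit, had 79.5 and 92.4 in Eif5 cKO and 135 and 78.1 in control, so control replicate 1 stood above the other 3 libraries in both genes. Rfc5 had the widest interval of the 5, from -1.09 to 0.79.

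Rrm2 had values of 62.5 and 62.8 in Eif5 cKO, against 180 and 142 in control. The mean of 62.6 ± 0.228 in Eif5 cKO stood against 161 ± 26.3 in control (SD, n = 2 each). limma gave a log2 fold change of -1.34, which is 2.53-fold lower on the log2(value + 1) scale (SE 0.31, 95% interval -1.96 to -0.72, Benjamini-Hochberg adjusted p = 0.0221). The knockout values rested on 55 and 70 reads, whose counting error alone is 13.5% and 12.0% of the value. Rrm2 spans 24708254 to 24714146 on chromosome 12 (GRCm38). The call was lost without control replicate 1 (limma adjusted p = 0.638) and without control replicate 2 (0.170), and kept without Eif5 cKO replicate 1 (0.0126) or Eif5 cKO replicate 2 (0.00937). The log2 fold change was -1.17 and -1.50 without control replicates 1 and 2 and -1.33 and -1.34 without Eif5 cKO replicates 1 and 2.

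Rrm1, the large subunit that carries the catalytic site of the same enzyme, had 501 and 539 in Eif5 cKO, against 808 and 545 in control (log2 fold change -0.35, SE 0.23). It was not called, and control replicate 2 lay close to Eif5 cKO replicate 2. Within the summed reads of both subunits, Rrm2 took 11.1% (95% Wilson interval 8.62% to 14.2%) and 10.4% (8.34% to 13.0%) in Eif5 cKO replicates 1 and 2. In control replicates 1 and 2 it took 18.2% (16.1% to 20.4%) and 20.7% (17.6% to 24.1%). The Eif5 cKO intervals lay below both control intervals. Shares were computed for 33 subunits of 9 complexes, and those of Mcm5 and of the Rrm1 and Rrm2 pair had intervals that did not meet between groups. The Rrm1 share is the remainder of the Rrm2 share. These shares use the same reads as the calls and are not separate evidence. The intervals cover counting error only, and the exact permutation p of 0.333 for Rrm2 is the smallest that 2 against 2 libraries allow.

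**Figure D4:**
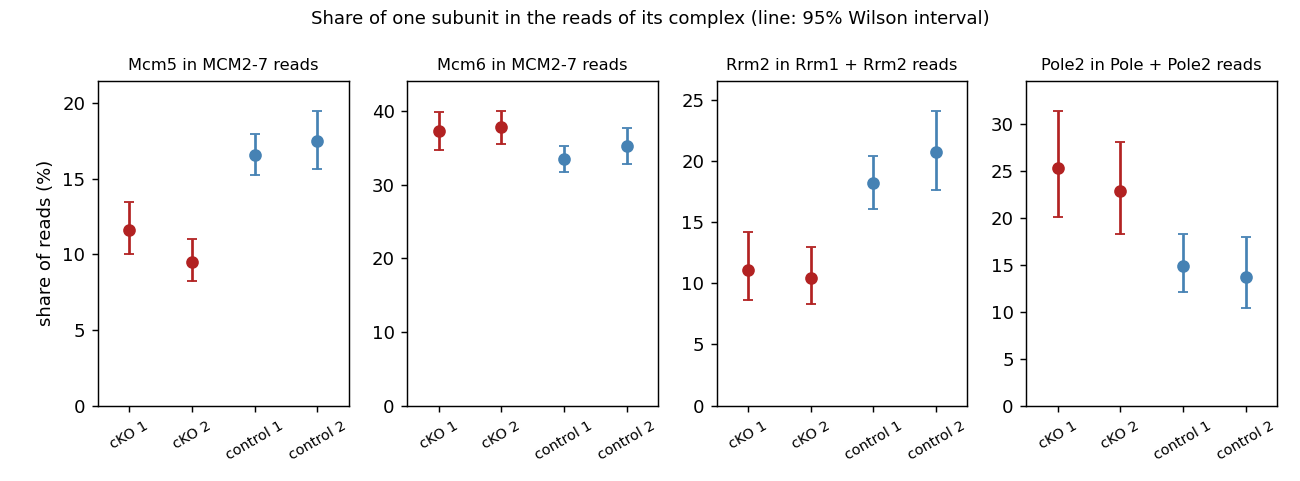
Share of Mcm5, Mcm6, Rrm2 and Pole2 in the summed reads of their complex (vertical axis, percent) in each library, with Eif5 cKO in red, control in blue and the 95% Wilson interval as a line. Mcm5 (11.6% and 9.52% in Eif5 cKO, 16.5% and 17.5% in control) and Rrm2 lie lower in both knockout libraries, while Pole2 lies higher.

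The other 3 genes of nucleotide supply had positive log2 fold changes and were not called. Dut, the dUTPase that keeps uracil out of DNA, had 663 and 452 in Eif5 cKO and 562 and 474 in control (log2 fold change 0.09, SE 0.23, 95% interval -0.39 to 0.56). Tyms, thymidylate synthase, had 122 and 68.2 in Eif5 cKO and 81.6 and 73.5 in control (0.23, SE 0.34). Tk1, the thymidine kinase of the salvage route, had 65.9 and 26.9 in Eif5 cKO and 26.9 and 31.0 in control (0.53, SE 0.48). In all 3 the groups overlapped, and Eif5 cKO replicate 1 stood above the other 3 libraries. Without that library the log2 fold changes were -0.18 for Tyms, -0.10 for Tk1 and -0.19 for Dut. The median over the 5 nucleotide supply genes was 0.09, and -0.19 without Eif5 cKO replicate 1. It was -0.40 with libraries scaled on the Sertoli cell list, which moved the median of all genes to -0.47.

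**Figure D5:**
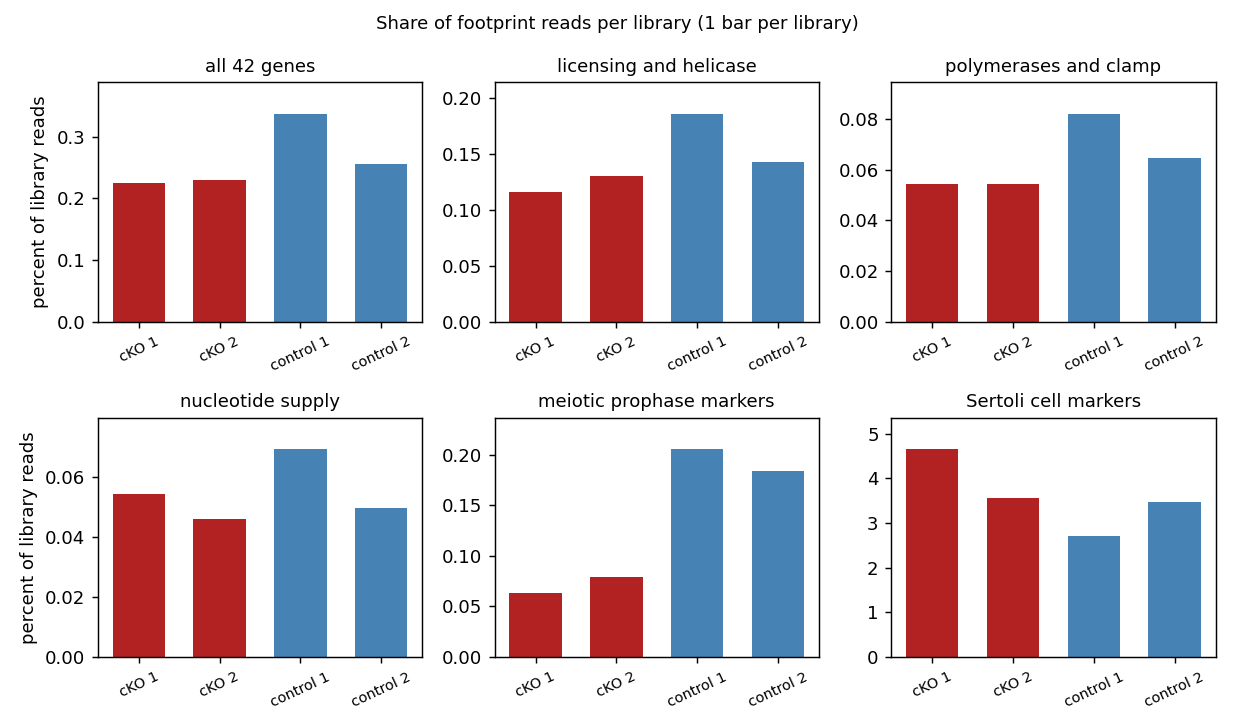
Percent of each library's reads (vertical axis, from 0) taken by the 42 genes, by each role group and by the meiotic prophase and Sertoli cell marker lists, with 1 bar per library, Eif5 cKO in red and control in blue. The 42 genes took 0.225% and 0.230% in Eif5 cKO and 0.338% and 0.257% in control.

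Added up, the 42 genes took 0.225% and 0.230% of reads in Eif5 cKO replicates 1 and 2, against 0.338% and 0.257% in control replicates 1 and 2. The means were 0.228% ± 0.00384 in Eif5 cKO and 0.297% ± 0.0573 in control (SD, n = 2 each). Licensing and helicase genes took 0.116% and 0.130% in Eif5 cKO and 0.186% and 0.142% in control, and polymerase and clamp genes took 0.0543% in each Eif5 cKO library and 0.0823% and 0.0646% in control. Nucleotide supply genes took 0.0542% and 0.0460% in Eif5 cKO and 0.0692% and 0.0496% in control, which overlapped. Pan-germ-cell markers took 0.103% and 0.119% of Eif5 cKO reads and 0.255% and 0.220% of control reads, and differentiating spermatogonia markers 0.0639% and 0.0658% against 0.111% and 0.0925% in control. Of these, 5 of 12 and 2 of 7 tested genes were called lower, against 0.604% of all genes tested. In each of these lists 1 gene had a positive log2 fold change. That of the differentiating spermatogonia list lay above both controls in both knockout libraries. Each listed gene had reads in both groups. Undifferentiated spermatogonia markers, of which 0 of 8 tested were called, took 0.0317% and 0.0329% in Eif5 cKO and 0.0373% and 0.0310% in control. The part of these cells in the replication genes' values was not tested.

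Among 17 further fork and initiation factors, 1 fell (5.88%, against 0.604% of all genes tested) and 0 rose. A negative sign was seen for 13 (76.5%, against 49.7% of all genes tested), and the median was -0.34. The gene that fell was Wdhd1, which ties polymerase alpha to the helicase (177 and 219 in Eif5 cKO, 403 and 399 in control; log2 fold change -1.02, SE 0.24, limma adjusted p = 0.0276). Rpa2, a subunit of the single-strand binding protein, had 148 and 188 in Eif5 cKO, against 384 and 270 in control (-0.95, SE 0.26), and was not called. Of 17 accessory polymerase, Okazaki fragment and topoisomerase genes, 0 were called and the median was -0.49. Its members with the smallest p were Top2a, which untangles replicated DNA (478 and 552 in Eif5 cKO, 1082 and 736 in control; -0.80, SE 0.23), and the polymerase delta subunit Pold3 (62.5 and 64.6 in Eif5 cKO, 136 and 123 in control; -1.01, SE 0.31).

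Of 11 genes of chromatin assembly at forks, the median was -0.33 and 1 fell (9.09%, against 0.604% of all genes tested). It was Asf1b, a chaperone of newly made histones H3 and H4, with 67.0 and 49.3 in Eif5 cKO, against 170 and 130 in control (log2 fold change -1.35, SE 0.32, limma adjusted p = 0.0277). Nasp, a histone chaperone, had 1696 and 1626 in Eif5 cKO, against 2916 and 2681 in control (-0.75, SE 0.24), and was not called. Over the 86 tested genes of all 5 wider lists, 2 fell (2.33%, against 0.604% of all genes tested) and 0 rose, 63 had a negative sign (73.3%, against 49.7%), and the median was -0.24, against 0.003. Control replicate 1 was above control replicate 2 for 62 of the 86 (72.1%, against 50.1%). Without control replicate 1 or control replicate 2 the number that fell was 0 in each fit, without Eif5 cKO replicate 1 it was 1, and without Eif5 cKO replicate 2 it was 6.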

How the data were processed

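Ribosome footprint reads of 4 day 10 testis libraries were summed by gene by the authors. Per the submitters' processing notes, the tools were Bowtie2, STAR and featureCounts with the build GRCm38, and versions, strand and multi-mapping settings are not given. Near-identical gene copies may share reads. The deposited values are a normalized signal: every value (100%, relative tolerance 1e-06) was a whole multiple of 1 read, and the divisors (0.880 and 1.11 for Eif5 cKO, 1.23 and 0.871 for control) equalled recomputed median-of-ratios size factors. Groups and replicate numbers came from the titles, and 0 columns belonged to other samples.

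limma 3.58.1 (R 4.3.3) with an intensity trend compared the groups on log2(value + 1), with no covariate, for 12095 genes passing filterByExpr of edgeR 4.0.16 (minimum count 10) on recovered reads. Tests were two-sided with Benjamini-Hochberg adjustment over all genes tested. The fit was tested on simulated data. With 2 libraries a group, calls rested on 2 residual and 37.0 prior degrees of freedom. The 42 genes, the wider and marker lists and the tests were chosen with earlier results of these data known; all 42 genes are described, and genes of other lists were named only from the called ones and the 2 with the smallest p of a list, apart from Spo11, named for having no read in Eif5 cKO. Alternatives were edgeR, DESeq2 1.42.0, other scalings, pseudocounts and filters, a replicate block, and leaving out each library. Promoter windows and positions came from RefSeq (GRCm38.p6). Depth was 2225964 to 2934609 reads a library, and a gene of the 42 had 5 to 990 reads in a library. RNA libraries were not analysed here, so mRNA level and translation could not be separated.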

Additional observations from a re-analysis of the deposited data

How the results depend on the processing

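Mcm5 and Rrm2 were called lower by edgeR, by DESeq2 and in limma with TMM factors, library totals, pseudocounts of 0.5 and 4, no filter and a filter of 50 reads in 2 libraries, with log2 fold changes of -1.04 to -1.10 and -1.30 to -1.38. With libraries scaled on the Sertoli list without Clu, which moved the median of all genes to -0.47, 276 genes were called, with 5 of the 42 lower (Cdc7, Cdc45 and Pole besides Mcm5 and Rrm2) and 9 of the wider lists. The medians were then -0.79 for all 42, -0.82 for licensing and helicase, -0.78 for polymerases and clamp and -0.40 for nucleotide supply. The nucleotide supply median was -0.13 with the filter of 50 reads in 2 libraries, which leaves out Tk1. With each library left out in turn, the calls over all genes, against 82 in all libraries, ran from 10 (without control replicate 1) and 20 (without control replicate 2) to 127 (without Eif5 cKO replicate 1) and 346 (without Eif5 cKO replicate 2). Those among the 42 ran from 0 to 3 and those in the wider lists from 0 to 6. A lone library was then assumed to vary like the other group. The median ran from -0.54 to -0.19 for all 42, -0.56 to -0.20 for licensing and helicase, -0.49 to -0.23 for polymerases and clamp and -0.19 to 0.36 for nucleotide supply. The causes were not tested. Mcm2, at 0.0027, was -0.02 by edgeR, -0.0025 by DESeq2, -0.01 with TMM factors, -0.04 with library totals and -0.48 with Sertoli scaling. Sertoli scaling also turned Orc2 (-0.26), Orc4 (-0.25), Gins2 (-0.19), Pola1 (-0.42), Pole2 (-0.35), Tyms (-0.24) and Dut (-0.40). Leaving out a library turned the sign of Mcm2 (-0.31 to 0.32), Mcm7 (-0.66 to 0.21), Orc4 (-0.30 to 0.74), Orc6 (-0.61 to 0.08), Cdt1 (-0.67 to 0.26), Gins1 (-0.32 to 0.22), Gins4 (-0.32 to 0.11), Pcna (-0.33 to 0.25), Pola1 (-0.20 to 0.30), Pole2 (-0.03 to 0.28), Rfc1 (-0.65 to 0.13), Rfc3 (-0.23 to 0.05), Rfc4 (-0.42 to 0.19), Rfc5 (-0.54 to 0.25), Tyms (-0.18 to 0.64), Tk1 (-0.10 to 1.16) and Dut (-0.19 to 0.36), none of which was called. With the replicate number as a block, 100 genes were called, and of the 42 Mcm5 and Rrm2. Same-numbered libraries did not deviate together (correlation of deviations across genes -0.0465), and the main fit used no pairing. With 2 libraries a group this is a single correlation, and it cannot settle whether same-numbered libraries were processed together. Low depth limits Cdc6, Gins3 and Orc1, whose standard errors were 0.51 to 0.68.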

Other observations

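Among 29 tested genes of general nucleotide metabolism, 0 were called and the median log2 fold change was -0.15. It was negative for 21 genes (72.4%, against 49.7% of all genes tested). At an unadjusted p under 0.05 in limma, 3 were lower (10.3%, against 6.31% of all genes tested) and 0 higher (against 4.32%). Dck, the deoxycytidine kinase of the salvage route, had 85.2 and 112 in Eif5 cKO, against 197 and 193 in control (log2 fold change -0.99, SE 0.28, limma adjusted p = 0.0905). Dctpp1, which breaks down dCTP, had 75.0 and 99.6 in Eif5 cKO, against 115 and 251 in control (-0.97, SE 0.32).

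Of 12 tested genes of the E2F and RB family, 0 were called. In limma 1 was lower at an unadjusted p under 0.05 (8.33%, against 6.31% of all genes tested). The log2 fold change was negative for 8 (66.7%, against 49.7% of all genes tested) and positive for 4. Both knockout values lay below both controls for 5 (41.7%, against 20.9% of all genes tested) and above both for 4 (33.3%, against 20.0%). The 2 genes with the smallest p both had negative log2 fold changes. E2f8, an atypical E2F repressor, had 2.27 and 11.7 in Eif5 cKO, against 23.7 and 28.7 in control (log2 fold change -2.07, SE 0.81, limma adjusted p = 0.311). E2f4 had 27.3 and 44.9 in Eif5 cKO, against 60.4 and 62.0 in control (-0.79, SE 0.42). In E2f8 and E2f4 the groups did not overlap.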
